A study of Mus musculus with 24 samples.

Results

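Caveolae are small flask-shaped pits of the plasma membrane, and 5 genes for their structural proteins are described here: the caveolins Cav1 and Cav2 and the cavins Cavin1, Cavin2 and Cavin3. The genes were taken by name, and their transcripts were summed per gene in every library. They are 5 of 35855 genes summed from the deposited tables, and all 5 are among the 12211 genes that passed the filter on low counts. They were selected on their measured levels and differences in these same libraries, so their differences between groups and between batches are given as a description, without a test.

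A caveola is built from an integral coat and a peripheral one. Caveolin-1, the product of Cav1, is inserted into the inner leaflet of the membrane and forms oligomers that bind cholesterol, and caveolin-2 joins these oligomers. Cavin-1 is required for caveolae to form and recruits cavin-2, which helps to bend the membrane, and cavin-3, which binds protein kinase C delta. Caveolae are abundant in endothelium, fat cells, smooth muscle, fibroblasts and alveolar type 1 cells, where they flatten under tension and take part in uptake and signalling. In layered epithelia caveolin-1 is found mainly in the basal cells.

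RNA was sequenced from 24 libraries, each of 1000 epithelial cells sorted from the trachea of wild-type female mice that had received no treatment. By the series title the mice were C57BL/6, and no label used here gives the age of the mice or says whether cells of several mice were combined. The 3 groups had 8 libraries each: cells labelled BCAM HI and BCAM LO (BCAM high and BCAM low below), which the title calls basal cell subsets (basal cells being the airway's progenitors), and cells labelled DIFFERENTIATED EPCS (differentiated below). BCAM, basal cell adhesion molecule, is a laminin receptor of the cell surface. All groups shared genotype, sex and absence of treatment, and each had 5 libraries labelled batch 1 (replicates 1 to 5) and 3 labelled batch 2 (replicates 6 to 8). The sources used here do not say what a batch stands for. Nothing in the labels ties libraries to separate mice, so p-values measure only the spread between these libraries.

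Estimated counts totalled 1824619 to 4440072 per library, and 15358 to 19619 genes had at least 1 count. CPM are counts scaled to the library total times its TMM factor, the scaling factor that edgeR fits per library. A larger factor gives a lower CPM. The factors ran from 1.131 to 1.235 among BCAM high, 0.8824 to 1.168 among BCAM low and 0.7127 to 0.9593 among differentiated libraries. The basal markers checked the sort, with values as mean ± SD (n = 8). Krt5, a keratin of basal cells, averaged 1672 ± 295 CPM among BCAM high, 929 ± 137 among BCAM low and 0.854 ± 1.22 among differentiated libraries. Bcam itself averaged 509 ± 133 CPM among BCAM high, 376 ± 91.2 among BCAM low and 395 ± 328 among differentiated libraries, with ranges that overlapped. The 5 secretory markers summed to 283000 to 413000 CPM in the differentiated libraries of batch 1 and to 12500 to 80400 in those of batch 2. The 4 thyroid markers summed to 13700 to 25700 CPM in differentiated libraries of batch 1 and to 49100 to 116000 in batch 2, against at most 1280 in any BCAM library. These sums differed between the groups compared below, and their part in the results was not tested.

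Cav1 and Cav2 are neighbours on chromosome 6 and are read in the same direction. In GENCODE M21 (build GRCm38), Cav1 (ENSMUSG00000007655) lies at chr6:17306335-17341452 on the plus strand and Cav2 (ENSMUSG00000000058) at chr6:17281185-17289115, with 17219 bp between them. Cavin1 (ENSMUSG00000004044) lies at chr11:100956733-100970887 on the minus strand, Cavin2 (ENSMUSG00000045954) at chr1:51289126-51302960 on the plus strand and Cavin3 (ENSMUSG00000037060) at chr7:105480083-105482300 on the minus strand. All are protein-coding genes. The 250 bases before the RefSeq start of Cav1, Cav2 and Cavin2 are printed because Cav1 and Cavin2 were the members with the widest gap between batches, while Cav2 stands beside Cav1 in the genome and had a smaller gap. They are plus-strand sequence of GRCm38.p6, 5′ to 3′, in lower case, with motif matches in capitals.
Cav1, chr6:17306085-17306334: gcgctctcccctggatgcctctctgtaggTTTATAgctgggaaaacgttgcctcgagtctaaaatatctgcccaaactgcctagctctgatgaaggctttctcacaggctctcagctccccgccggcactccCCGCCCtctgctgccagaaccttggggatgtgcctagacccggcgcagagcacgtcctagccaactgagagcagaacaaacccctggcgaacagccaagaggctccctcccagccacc
Cav2, chr6:17280935-17281184: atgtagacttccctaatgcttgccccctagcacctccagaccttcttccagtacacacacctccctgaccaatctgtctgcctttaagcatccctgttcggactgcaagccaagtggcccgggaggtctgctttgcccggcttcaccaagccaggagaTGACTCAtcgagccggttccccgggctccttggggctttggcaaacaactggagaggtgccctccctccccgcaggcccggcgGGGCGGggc
Cavin2, chr1:51288876-51289125: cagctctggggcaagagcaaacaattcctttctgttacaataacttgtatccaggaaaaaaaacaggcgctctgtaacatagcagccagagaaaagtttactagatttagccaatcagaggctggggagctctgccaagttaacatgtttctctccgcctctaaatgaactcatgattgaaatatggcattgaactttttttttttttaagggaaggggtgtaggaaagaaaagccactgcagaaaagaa

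The motifs searched on both strands were the TEAD motif GGAATG, the AP-1 motif TGANTCA, the GC box GGGCGG, the TATA box TATAAA and the sterol element TCACNCCAC. They were found in 12.64%, 6.75%, 32.72%, 12.37% and 1.05%, respectively, of 32817 RefSeq windows of this length. The Cav1 window held a GC box at position -118 and TATAAA at position -221, both on the minus strand, counted from the start site. The Cav2 window held an AP-1 motif at position -92, which matches on both strands, and a GC box at position -9 on the plus strand. The Cavin2 window held none of the 5. It was also the poorest in G and C, at 40.4%, against 59.6% for Cav1, 62.0% for Cav2 and a median of 52.4% over all windows. A match is a description of the letters, not of a bound site.

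By the mean over all 8 libraries, Cav1 was the most abundant of the 5 per unit of transcript length in each group, an order that did not hold in batch 2, where Cav2 lay above Cav1 in 7 of 9 libraries and Cavin1 over Cav1 averaged 1.32, 2.26 and 1.86. On the same scale all 5 had their lowest mean in the differentiated group. On the TPM scale (transcript abundance allowing for length), Cav1 averaged 457 ± 249 among BCAM high, 277 ± 199 among BCAM low and 61.0 ± 31.9 among differentiated libraries (n = 8 each). Its level ranked 264th, 359th and 1277th among the 12211 genes in those groups. Cav2 averaged 235 ± 33.4, 143 ± 43.8 and 49.6 ± 20.4 TPM, and Cavin1 245 ± 36.6, 182 ± 41.9 and 52.4 ± 16.6 TPM, so the means of Cav2 and Cavin1 differed by less than the SD of either gene in each group. Cavin2 averaged 52.6 ± 27.9, 31.8 ± 18.3 and 15.1 ± 10.7 TPM. Cavin3 was the lowest, with 15.6 ± 5.32, 14.5 ± 7.03 and 2.84 ± 1.28 TPM. Summed over the 5 genes, the level was 1006 ± 334 TPM among BCAM high, 648 ± 299 among BCAM low and 181 ± 72.1 among differentiated libraries. In these bulk libraries, fewer cells with a transcript and less of it per cell cannot be told apart.

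**Figure D1:**
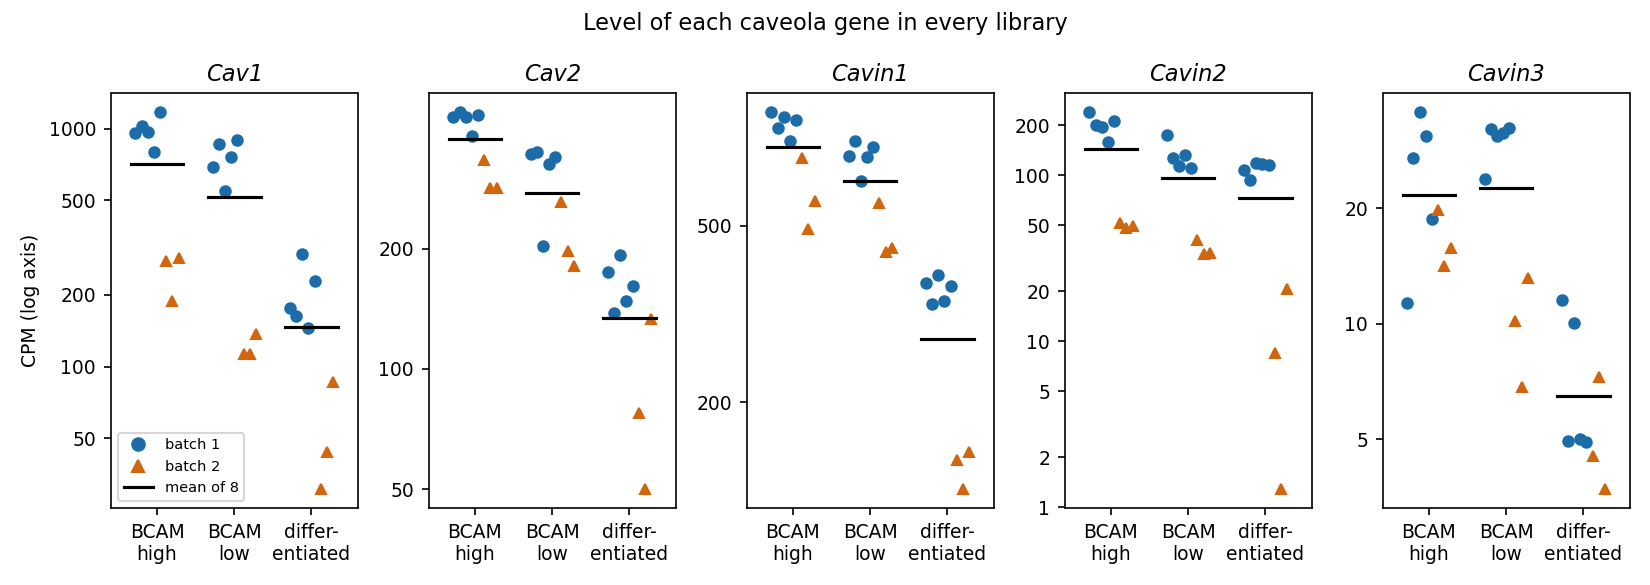
CPM of each gene (log axis, scaled separately for each gene) in the 8 libraries of each group, with batch 1 as circles, batch 2 as triangles and the mean of 8 as a bar. The mean of the differentiated group is the lowest of the 3 for each gene, and within each group the 3 triangles of Cav1 and Cavin2 lie below all 5 circles.

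The caveolins were higher in BCAM high than in BCAM low in each of the 8 pairs of libraries with the same replicate number, and their means were higher in both BCAM groups than in the differentiated group. Cav1 had a lowest, median and highest level of 188.5, 875 and 1170 CPM among BCAM high, 112.7, 619 and 895 among BCAM low and 30.5, 154 and 296.5 among differentiated libraries. The ranges over all 8 libraries overlapped between every pair of groups. Within batch 1, BCAM high and BCAM low still overlapped (797 to 1170 and 548.5 to 895 CPM), while both lay above the differentiated libraries (145.5 to 296.5). Within batch 2 the 3 groups were apart, at 188.5 to 287, 112.7 to 136.7 and 30.5 to 86.0 CPM. The fitted log2 difference of Cav1 was 0.62 (SE 0.184) between BCAM high and BCAM low, 2.26 (SE 0.193) between BCAM high and differentiated and 1.64 (SE 0.19) between BCAM low and differentiated. These correspond to 1.54-fold, 4.80-fold and 3.12-fold higher levels.

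Cav2 spread less than Cav1 within a group. Its lowest, median and highest levels were 282.9, 405 and 438.8 CPM among BCAM high, 180.6, 294 and 348.3 among BCAM low and 49.9, 143 and 192.6 among differentiated libraries. All 8 BCAM high libraries lay above all 8 differentiated ones, and BCAM low overlapped the differentiated range through 2 libraries at 180.6 and 192.6 CPM, BCAM low 8 and differentiated 3. The log2 difference was 0.46 (SE 0.143) between BCAM high and BCAM low, 1.52 (SE 0.147) between BCAM high and differentiated and 1.07 (SE 0.146) between BCAM low and differentiated. The value for BCAM high and BCAM low was nearly the same in each batch alone, 0.44 (SE 0.127) in batch 1 and 0.49 (SE 0.284) in batch 2.

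Cavin1, the cavin that caveolae require, separated the BCAM groups from the differentiated group in every library. Its lowest, median and highest levels were 491, 805 and 903 CPM among BCAM high, 437, 673 and 778 among BCAM low and 127, 335 and 387 among differentiated libraries. The log2 difference from the differentiated group was 1.53 (SE 0.12) for BCAM high and 1.26 (SE 0.119) for BCAM low. It was wider in batch 2 alone, at 2.04 (SE 0.176) and 1.75 (SE 0.175), than in batch 1 alone, at 1.25 (SE 0.095) and 1.00 (SE 0.095). Between BCAM high and BCAM low the difference was 0.27 (SE 0.116), the ranges overlapped, and BCAM high was the higher in 8 of 8 same-numbered pairs.

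Cavin2 and Cavin3 followed less evenly. Cavin2 had a lowest, median and highest level of 48.1, 177 and 239 CPM among BCAM high, 33.4, 112 and 174 among BCAM low and 1.28, 100.9 and 118 among differentiated libraries, with overlap between all groups. The lowest of these was differentiated 7, with 3 counts. Its log2 difference was 0.57 (SE 0.259) between BCAM high and BCAM low and 1.25 (SE 0.267) between BCAM high and differentiated. BCAM low exceeded differentiated by 0.69 (SE 0.268), with 0.25 (SE 0.133) in batch 1 alone and 1.82 (SE 0.584) in batch 2 alone.

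Cavin3 did not separate the BCAM groups. It ran from 11.3 to 35.5 CPM among BCAM high, 6.86 to 32.4 among BCAM low and 3.703 to 11.5 among differentiated libraries, where it rested on 8 to 20 counts per library. The log2 difference between BCAM high and BCAM low was 0.03 (SE 0.235), BCAM high was the higher in 4 of 8 pairs, and the batches pointed opposite ways, at -0.28 (SE 0.257) in batch 1 and 0.72 (SE 0.417) in batch 2. Against the differentiated group, BCAM high was higher by 1.73 (SE 0.267) and BCAM low by 1.70 (SE 0.268).

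**Figure D2:**
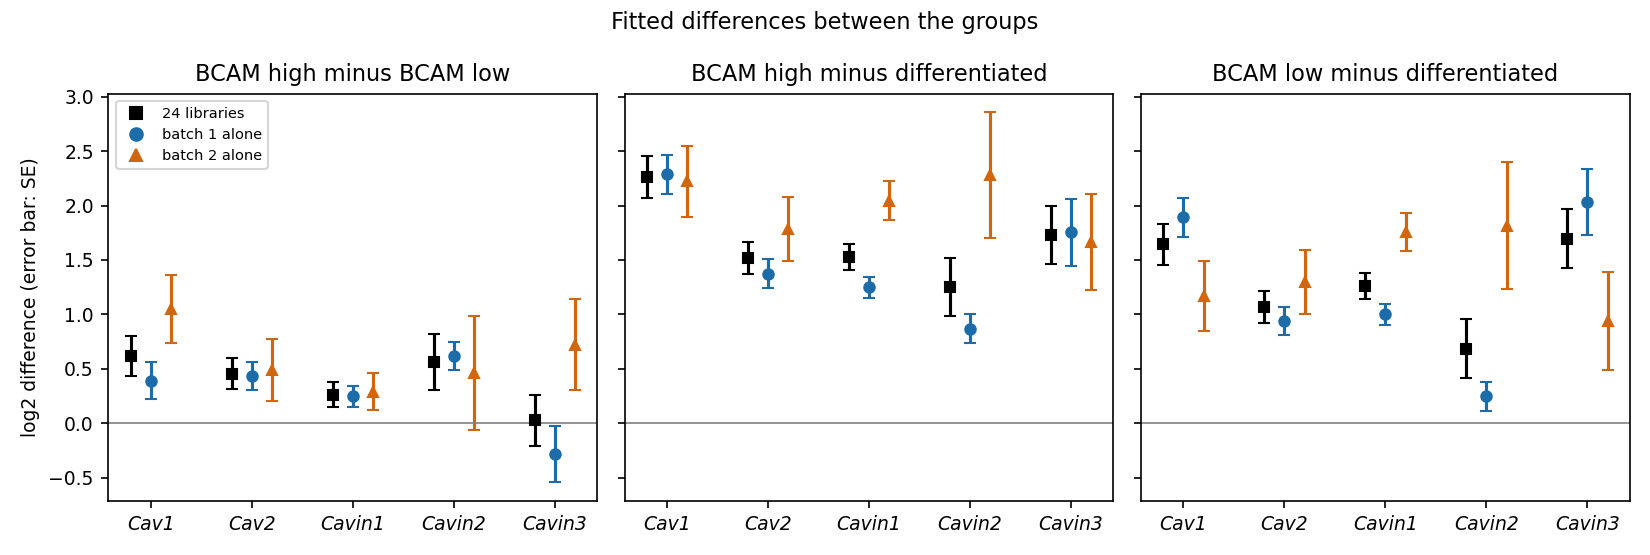
Fitted log2 differences between the groups for each gene, with SE bars, from all 24 libraries (squares) and from batch 1 (circles) or batch 2 (triangles) alone. Of the 15 squares, all lie above 0; the circle of Cavin3 between BCAM high and BCAM low lies below it, at -0.28.

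Across genes, the share past an adjusted p of 0.05 (edgeR's quasi-likelihood test with Benjamini-Hochberg adjustment) was 7.02% between BCAM high and BCAM low, 41.3% between BCAM high and differentiated and 33.5% between BCAM low and differentiated. Of the 5 caveola genes, 2, 5 and 4 were past it in those comparisons, all in the direction of the group named first, where 2.43%, 19.4% and 16.3% of all genes were called. Ranges of 8 and 8 libraries did not overlap for 0, 2 and 1 of the 5, against 0.5%, 6.1% and 3.44% of all genes in the same direction. Within batch 1 they did not overlap for 2, 4 and 4 of the 5 (3.32%, 11.8% and 10.2% of all genes), and within batch 2 for 4, 5 and 4 (11.1%, 20.9% and 16.9%). Nothing is read from these counts, since the same values chose the genes. The comparisons share libraries, so they are not independent of each other. With limma on log2(TPM + 1) in place of counts, the median of all genes moved to 0.23, 0.64 and 0.40 in the 3 comparisons. The split of called genes moved with it, from 297 higher and 560 lower to 812 and 223 between BCAM high and BCAM low, from 2363 and 2681 to 6835 and 906 between BCAM high and differentiated, and from 1996 and 2090 to 4245 and 657 between BCAM low and differentiated. Relative to that median, Cav1 differed by 0.72, 2.27 and 1.55 on this scale, Cavin1 by 0.22, 1.62 and 1.41, and Cavin3 by -0.01, 1.48 and 1.49.

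Cav1 and Cavin2 had the widest gaps between batches in each group, although in BCAM low that of Cavin3 differed from that of Cavin2 by less than their SE. Cav1 averaged 983 ± 135 CPM in batch 1 (n = 5) and 251 ± 54.3 in batch 2 (n = 3) of BCAM high, 751 ± 140 and 121 ± 13.8 in BCAM low, and 202 ± 61.2 and 53.5 ± 29.0 in differentiated libraries. In no group did its batches overlap. The log2 difference, batch 2 minus batch 1, was -1.97 (SE 0.272), -2.64 (SE 0.284) and -1.91 (SE 0.281), which made batch 1 higher by 3.92-fold, 6.22-fold and 3.75-fold. The gap between batches within BCAM low was thus wider than the 3.12-fold difference of Cav1 between BCAM low and differentiated.

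Cavin2 averaged 201 ± 28.9 CPM in batch 1 and 49.7 ± 1.87 in batch 2 of BCAM high, 131 ± 25.4 and 35.9 ± 4.03 in BCAM low, and 110 ± 9.89 and 10.1 ± 9.75 in differentiated libraries. Its batches did not overlap in any group, and its log2 difference was -2.02 (SE 0.311), -1.87 (SE 0.319) and -3.42 (SE 0.372). Cav2 and Cavin1 had smaller gaps in the same direction: -0.49 (SE 0.204), -0.55 (SE 0.206) and -0.90 (SE 0.215) for Cav2, and -0.53 (SE 0.127), -0.58 (SE 0.127) and -1.33 (SE 0.133) for Cavin1. Cavin3 had -0.58 (SE 0.32), -1.59 (SE 0.349) and -0.49 (SE 0.408).

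All 5 genes were thus lower in batch 2 in each group. Past the adjusted threshold were 3 among BCAM high, 4 among BCAM low and 4 among differentiated libraries, where 3.11%, 4.66% and 10.2% of all genes were called lower in batch 2 and 8.04%, 11.1% and 20.1% in either direction. Batches did not overlap for 4 of 5 genes in each group, against 9.04%, 8.41% and 10.8% of all genes with batch 2 the lower. These counts too describe genes that were chosen with the values known. Basal markers summed to 7630 to 8470 CPM in batch 2 and 5940 to 6890 in batch 1 of BCAM high, and to 5720 to 5880 and 5520 to 6170 in BCAM low. In the differentiated group they summed to 2100 to 2630 CPM in batch 1 and 339 to 1060 in batch 2. There Krt15 had the highest mean of these markers over all 8 libraries, at 1476 CPM, followed by Pdpn at 126 and Itga6 at 40.8. The part of these transcripts in the gap between batches was not tested.

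The uneven gaps changed the proportions between the members. Per unit of length, Cav2 stood at 0.405 ± 0.0345 of Cav1 in batch 1 of BCAM high and at 1.25 ± 0.282 in batch 2. In BCAM low the ratio was 0.393 ± 0.0484 and 1.96 ± 0.785, and in differentiated libraries 0.696 ± 0.12 and 1.66 ± 0.926. Cav1 was thus the more abundant caveolin in each of the 15 libraries of batch 1, and Cav2 in 7 of the 9 libraries of batch 2, the exceptions being BCAM high 8 (0.924) and differentiated 7 (0.778). Cavin1 over Cav1 moved likewise, from 0.42 ± 0.0538 to 1.32 ± 0.271 in BCAM high and from 0.54 ± 0.106 to 2.26 ± 0.587 in BCAM low. In differentiated libraries the batches overlapped, at 0.601 to 0.965 in batch 1 and 0.787 to 3.632 in batch 2. Cavin1 over Cav2 differed little, at 1.04 ± 0.0875 and 1.07 ± 0.10 in the batches of BCAM high and 1.39 ± 0.325 and 1.19 ± 0.149 in those of BCAM low. Cavin2 over Cavin1 was 0.271 ± 0.0268 in batch 1 and 0.0983 ± 0.0149 in batch 2 of BCAM high, 0.211 ± 0.042 and 0.0856 ± 0.00265 in BCAM low, and 0.352 ± 0.0244 and 0.0752 ± 0.0726 in differentiated libraries.

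**Figure D3:**
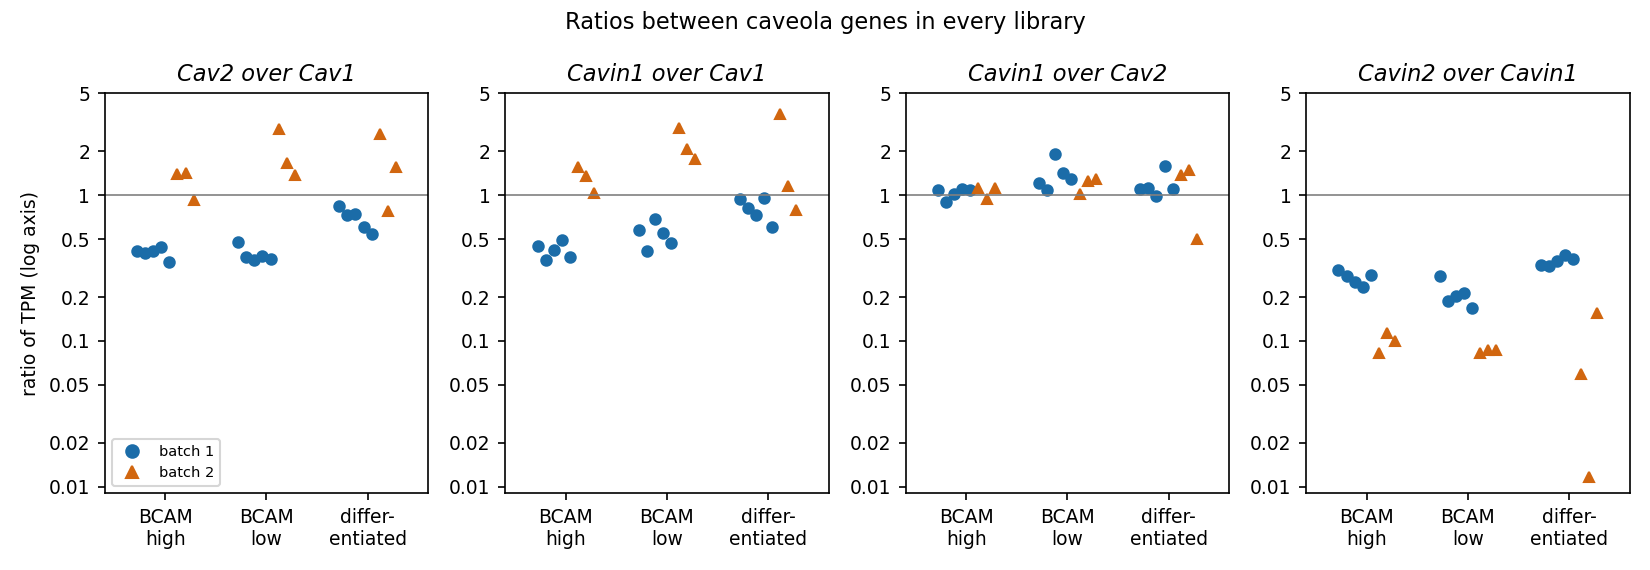
Ratio of TPM between pairs of caveola genes (log axis; the grey line marks a ratio of 1) in the 8 libraries of each group, batch 1 as circles and batch 2 as triangles. The triangles lie above the circles for Cav2 over Cav1 in both BCAM groups and below them for Cavin2 over Cavin1 in all 3 groups, while for Cavin1 over Cav2 the ranges of the batches overlap.

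The transcripts within a gene were not used to choose the members, and were tested. Cav1 has 10 listed transcripts, of which Cav1-201 (2522 bases) held 62.6 ± 6.07% of the gene's TPM among BCAM high, 71.7 ± 6.47% among BCAM low and 52.9 ± 10.3% among differentiated libraries (n = 8 each). The share ran from 54.3% to 74.6% among BCAM high, from 57.2% to 80.2% among BCAM low and from 40.7% to 75.2% among differentiated libraries, so that all ranges overlapped. It was lower in BCAM high than in BCAM low by 9.11 percentage points, with an exact two-sided permutation p of 0.0103 (labels permuted within batch) and a Benjamini-Hochberg adjusted p of 0.0464 over 9 tests. BCAM low exceeded differentiated libraries by 18.9 points (exact permutation p 0.00318, adjusted 0.0286), and BCAM high exceeded them by 9.74 points (adjusted exact permutation p 0.135). Each of the 5040 regroupings counts for 0.000198, and the two-sided p always includes the observed grouping and its mirror image.

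The call between BCAM high and BCAM low was lost when any 1 of 14 of the 16 libraries was left out, with adjusted exact permutation p-values up to 0.121. The exceptions were BCAM high 6 and BCAM low 2. Without differentiated 3, the difference between BCAM high and differentiated libraries was 12.9 points and passed (adjusted exact permutation p 0.00536, in a range of 0.00536 to 0.254 over the libraries left out in turn). As a share of estimated counts rather than TPM, Cav1-201 differed by -4.74 points between BCAM high and BCAM low and by 10.3 points between BCAM low and differentiated libraries, and neither passed (adjusted exact permutation p 0.0536 and 0.179). Transcripts that start in the first group of start sites, at chr6:17306335-17306423, held 92.8 ± 2.83% of Cav1 counts among BCAM high, 94.8 ± 2.82% among BCAM low and 88.8 ± 13.8% among differentiated libraries. By counts, Cav1-201 alone held 87.6 ± 1.93%, 92.3 ± 3.30% and 82.1 ± 13.7%. Cav2-201 held 59.5 ± 4.19%, 64.6 ± 10.1% and 62.1 ± 14.3% of Cav2, and Cavin1-201 held 99.8 ± 0.324%, 99.6 ± 0.46% and 98.3 ± 3.9% of Cavin1, with adjusted exact permutation p-values from 0.457 to 0.694. Cavin2 and Cavin3 have 1 listed transcript each.

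**Figure D4:**
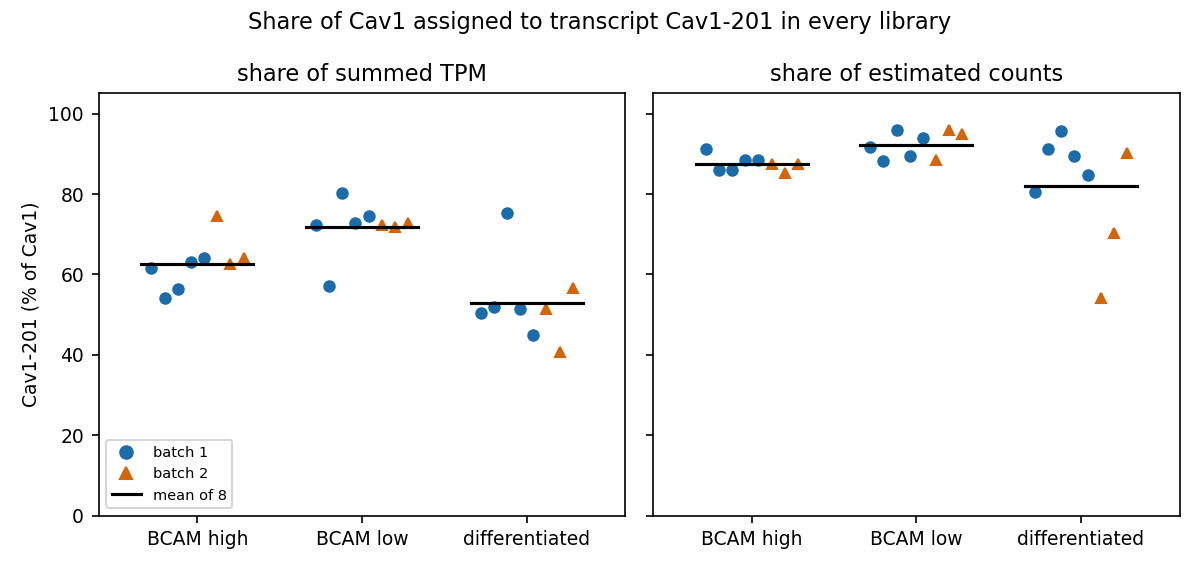
Share of Cav1 held by transcript Cav1-201 in every library, in percent of the gene's TPM (left) and of its estimated counts (right), with batch 1 as circles, batch 2 as triangles and the mean of 8 as a bar. BCAM low has the highest mean on both scales, 71.7% and 92.3%, and differentiated 3 lies at 75.2% on the left, above the rest of its group.

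Among the 5 genes, Cav2 and Cavin1 ran most alike over the 24 libraries, with Pearson's r of 0.955 between their log2 CPM, and none of 9041 other genes with a mean of at least 10 CPM was closer to Cav2. This is a description over libraries that share groups and batches, and within group and batch 83 other genes were closer to Cav2 than Cavin1 was. After the mean of each group and batch was removed, Cav2 and Cavin1 kept 0.715 and Cav2 and Cavin2 0.79, while Cavin3 had 0.0711 with Cav1, -0.119 with Cav2 and -0.398 with Cavin2. On the log scale Cavin2 spread most among the differentiated libraries of batch 2, at 8.47, 1.28 and 20.6 CPM (15, 3 and 50 counts). Its values of r within group and batch, here and below, may rest largely on those libraries, which was not tested. The genes outside the set that ran most like Cav1 were Arntl, a core factor of the circadian clock, at 0.942, and the ribosomal protein genes Rplp1 at 0.94 and Rps15 at 0.932. Within group and batch they included Sgk1, a serum- and glucocorticoid-induced kinase, at 0.847 and Hs3st1 at 0.8. For Cav2 they were Hcar2 (0.951), Sdc1, the syndecan-1 gene (0.95), and Galnt18 (0.947), and within group and batch F3, the tissue factor gene (0.902), Galnt18 (0.881) and Upk1b (0.879).

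For Cavin1 the closest genes were Sdc1 (0.965), Efemp1 (0.961) and Pde7a (0.956), and within group and batch Klf13 (0.808), Lmna (0.775) and Elovl5 (0.769). For Cavin2 they were Ifitm3 (0.953), Gstm2 (0.949) and Lgals9 (0.947), and within group and batch Tyro3 (0.929), B3gnt3 (0.926) and Adamtsl5 (0.924). For Cavin3 they were Capg (0.889), Sh3bgrl3 (0.886) and Trpv4 (0.885), and within group and batch Otud4 (0.713), Pacs1 (0.712) and Babam1 (0.701). Sdc1 thus appeared for both Cav2 and Cavin1, and no gene appeared among the closest 3 of Cav1 and of another member.

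Of 12 further genes of the caveolar coat and neck, 8 were tested: Ehd1, Ehd2, Ehd3 and Ehd4, ATPases of the membrane neck family, the membrane-bending Pacsin2 and Pacsin3, and the scission enzymes Dnm2 and Dnm3. Cav3 and Cavin4, the muscle forms, and Pacsin1 and Dnm1, the neuronal forms, were too low to be tested. Ehd2, whose product sits at the caveolar neck and holds caveolae at the surface, was the only gene of this list called higher in either BCAM group than in differentiated libraries by edgeR over all libraries. It had a lowest and highest level of 47.7 and 70.2 CPM among BCAM high, 15.9 and 53.3 among BCAM low and 2.78 and 33.3 among differentiated libraries, with BCAM high above the differentiated range. Ehd2 was higher in BCAM high than in differentiated libraries by 2.09 on the log2 scale (SE 0.344, adjusted p 2.65e-05) and higher in BCAM low by 1.34 (SE 0.35, adjusted p 0.00476; edgeR quasi-likelihood, Benjamini-Hochberg). In batch 1 alone these values were 2.76 and 2.21, and in batch 2 alone 1.36 and 0.04, the last not called (edgeR adjusted p 0.973). Between BCAM high and BCAM low its difference of 0.75 (SE 0.31) was not called in edgeR over all 24 libraries (adjusted p 0.155), although BCAM high was the higher in 8 of 8 pairs. It was called with only the 2 groups in the edgeR fit (0.79, adjusted p 0.000505) and on the TPM scale (1.41, or 1.18 above the median of all genes, limma adjusted p 0.0129), in a range of 0.000505 to 0.265 over the alternatives.

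Ehd4 was lower in BCAM high. It averaged 11.2 ± 2.92 CPM among BCAM high, 22.0 ± 6.64 among BCAM low and 28.8 ± 1.78 among differentiated libraries (n = 8), and BCAM high was the lowest in 8 of 8 pairs. Its log2 difference was -0.98 (SE 0.18, edgeR adjusted p 0.000876) between BCAM high and BCAM low and -1.36 (SE 0.182, edgeR adjusted p 5.38e-07) between BCAM high and differentiated, the latter not called on the TPM scale (-0.47, or -1.10 relative to the median of all genes, limma adjusted p 0.108). The former was not called in batch 2 alone (-0.85, edgeR adjusted p 0.196). Pacsin3 was lower in BCAM high than in differentiated libraries (-0.43, SE 0.166, edgeR adjusted p 0.0393), a call that leaving out any 1 of 9 libraries ended. On the TPM scale it was called higher instead (0.47, or -0.17 relative to the median of all genes, limma adjusted p 0.0447). It was lower in BCAM low (-0.52, SE 0.167, edgeR adjusted p 0.0167), a call lost on that scale (-0.10, or -0.50 relative to that median). Neither call of Pacsin3 was made in batch 1 or batch 2 alone, or with no filter on low counts. Ehd1, Ehd3, Pacsin2, Dnm2 and Dnm3 passed in none of the 3 comparisons in the edgeR fit over all libraries. Dnm2 differed by batch: against differentiated libraries it was lower in batch 1 alone, by log2 differences of -0.63 in BCAM high (edgeR adjusted p 0.000111) and -0.34 in BCAM low (edgeR adjusted p 0.0272), and higher in BCAM low in batch 2 alone, by 0.67 (edgeR adjusted p 0.0094). It was also called lower in BCAM high than in differentiated libraries without differentiated 6 or without differentiated 7 (-0.35 and -0.34, edgeR adjusted p 0.0327 and 0.0439), and than in BCAM low with only the 2 groups in the fit (-0.29, edgeR adjusted p 0.0418). In all, the list had 0 higher and 1 lower, 1 higher and 2 lower, and 1 higher and 1 lower in the 3 comparisons, with median log2 differences of -0.04, -0.15 and 0.01, against 0.00, 0.02 and 0.02 over all genes. Called were 12.5%, 37.5% and 25.0% of the 8, against 7.02%, 41.3% and 33.5% of all genes. On either TPM scale, which moves the median of all genes upward, the counts were 1 higher and 1 lower, 5 higher and none lower, and 2 higher and none lower, and with log2(TPM + 1) the list's median lay at 0.01, -0.08 and -0.01 relative to that of all genes.

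The list of other scaffold proteins of cholesterol-rich membrane (flotillins, stomatins, erlins and MAL proteins) had 9 of 10 genes tested. In edgeR, 0 were higher and 1 lower between BCAM high and BCAM low, 3 higher and 1 lower between BCAM high and differentiated, and 4 higher and none lower between BCAM low and differentiated, with medians of -0.04, 0.14 and 0.36. Called were 11.1%, 44.4% and 44.4%, against 7.02%, 41.3% and 33.5% of all genes, whose medians were 0.00, 0.02 and 0.02. On either TPM scale 6 were higher and 1 lower between BCAM high and differentiated. Flot2, for a flotillin, averaged 144 ± 10.4 CPM among BCAM high, 119 ± 21.7 among BCAM low and 71.7 ± 12.4 among differentiated libraries, and was higher than in differentiated by 1.00 (SE 0.118, edgeR adjusted p 6.13e-08) and 0.73 (SE 0.118, edgeR adjusted p 1.52e-05). Stom, for stomatin, was higher by 1.11 (SE 0.221, edgeR adjusted p 0.000191) and 0.93 (SE 0.221, edgeR adjusted p 0.00191). Mall was higher in BCAM low than in differentiated by 0.56 (edgeR adjusted p 0.0423), a call that leaving out any 1 of 12 libraries ended and that was not made in batch 1 alone (0.23, edgeR adjusted p 0.328) or with no batch term (0.52, edgeR adjusted p 0.0809). Mal, a tetraspan protein of apical transport, was lower among BCAM high, with 34.3 ± 11.4 CPM against 134 ± 50.3 among BCAM low and 117 ± 23.7 among differentiated libraries (log2 differences of -1.88, SE 0.19, edgeR adjusted p 2.76e-07, and -1.74, SE 0.19, edgeR adjusted p 2.28e-08). In batch 2 alone Mal was not called between BCAM high and BCAM low (-1.17, edgeR adjusted p 0.0672), nor was Flot2 between BCAM low and differentiated (0.32, edgeR adjusted p 0.217).

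Genes of cholesterol synthesis and transport that were called in BCAM high against differentiated libraries were mostly lower on the count scale over all libraries, but not in batch 2 alone. Of all 27, which were tested, 0 were higher and 2 lower between BCAM high and BCAM low, 2 higher and 15 lower between BCAM high and differentiated, and 2 higher and 7 lower between BCAM low and differentiated, with medians of -0.28, -0.62 and -0.31 against 0.00, 0.02 and 0.02 over all genes. Called were 7.41%, 63.0% and 33.3%, against 7.02%, 41.3% and 33.5% of all genes, so that in the first and the third comparison the share was near that of all genes. In batch 2 alone, edgeR called 3 higher and 3 lower in BCAM high and 2 higher and 1 lower in BCAM low, against differentiated libraries. With limma on either TPM scale, the counts against differentiated were 6 higher and 4 lower in BCAM high and 6 higher and 1 lower in BCAM low. With log2(TPM + 1) the list's median lay at -0.25, -0.62 and -0.38 relative to that of all genes. Mvd, of the mevalonate pathway, averaged 3.12 ± 1.96 CPM among BCAM high, 10.2 ± 3.26 among BCAM low and 16.3 ± 4.40 among differentiated libraries, and was lower in BCAM high by a log2 difference of -1.80 (SE 0.3, edgeR adjusted p 0.000322) and -2.46 (SE 0.304, edgeR adjusted p 1.4e-07). Cyp51, the lanosterol demethylase gene, was lower in BCAM high than in BCAM low by a log2 difference of -0.84 (SE 0.247, edgeR adjusted p 0.0342), a call that leaving out any 1 of 7 libraries ended and that was lost on the TPM scale (-0.66, or -0.89 relative to the median of all genes, limma adjusted p 0.139), with no filter on low counts (-0.81, edgeR adjusted p 0.054) and in batch 1 alone (-0.50, edgeR adjusted p 0.234). Insig1, which holds back sterol synthesis, was lower than in differentiated by a log2 difference of -2.24 (SE 0.324, edgeR adjusted p 4.98e-06) in BCAM high and -1.29 (SE 0.313, edgeR adjusted p 0.00253) in BCAM low, the latter not called on the TPM scale (-0.56, or -0.96 relative to the median of all genes, limma adjusted p 0.0846). Npc2, which carries cholesterol out of lysosomes, was lower in BCAM low than in differentiated by a log2 difference of -2.003 (SE 0.136, edgeR adjusted p 3.29e-12). It was also called lower in BCAM high, by a log2 difference of -1.85 (SE 0.135). Abcg1, a cholesterol exporter, was higher than in differentiated by 1.90 (SE 0.368, edgeR adjusted p 0.000163) in BCAM high and 1.44 (SE 0.371, edgeR adjusted p 0.00386) in BCAM low. In batch 2 alone, Abcg1 (0.60 and 0.14), Insig1 (-0.98 and 0.04) and the difference of Mvd between the BCAM groups (-1.09) were not called, with edgeR adjusted p-values of 0.0552 to 0.956.

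The clathrin coat, the other main route of uptake, had 14 of 14 genes tested. Between BCAM high and BCAM low, edgeR called 0, with 3 at an unadjusted p under 0.05, DESeq2 called 0 and limma on the TPM scale called 1. Against differentiated libraries, 4 were higher and 2 lower in BCAM high and 3 higher and 2 lower in BCAM low, with medians of 0.00 and 0.19; on either TPM scale 11 were higher in BCAM high and 7 in BCAM low, and none lower. Called in edgeR were 42.9% and 35.7%, near the 41.3% and 33.5% of all genes. With log2(TPM + 1) the list's medians lay at 0.05 and 0.28 relative to that of all genes. Fcho2, which starts clathrin pits, was higher by 0.87 (SE 0.204, edgeR adjusted p 0.000993) in BCAM high and 0.84 (SE 0.202, edgeR adjusted p 0.00186) in BCAM low. Picalm, a clathrin assembly protein, was higher by 0.53 (SE 0.136, edgeR adjusted p 0.00239) and 0.49 (SE 0.136, edgeR adjusted p 0.0067). Ap2a2, of the AP-2 adaptor, was higher in BCAM low by 0.40 (SE 0.106, edgeR adjusted p 0.00473) and in BCAM high by 0.44 (SE 0.106, edgeR adjusted p 0.00122). Cltc, the clathrin heavy chain gene, was lower in BCAM high by a log2 difference of -0.65 (SE 0.12, edgeR adjusted p 5.94e-05), a call lost on the TPM scale (0.04, or -0.60 relative to the median of all genes, limma adjusted p 0.862) and in batch 2 alone (-0.37, edgeR adjusted p 0.193). In BCAM low Cltc was also called lower, by a log2 difference of -0.35 (SE 0.12, edgeR adjusted p 0.0257). That call was lost on the TPM scale, in batch 2 alone and when any 1 of 4 libraries was left out. Fcho2 in BCAM high was not called in batch 1 alone (0.34, edgeR adjusted p 0.148), nor was Picalm (0.44, edgeR adjusted p 0.0515), and in BCAM low Picalm (0.42) and Ap2a2 (0.46) were not called in batch 2 alone.

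Of 14 kinases, receptors, channels and enzymes reported at caveolae, 10 were tested. In edgeR, 1 was higher and none lower between BCAM high and BCAM low, 5 higher and 1 lower between BCAM high and differentiated, and 3 higher and 1 lower between BCAM low and differentiated, with medians of 0.05, 0.33 and 0.35. Against differentiated libraries, 60.0% and 40.0% were called, where 41.3% and 33.5% of all genes were called. The median of all genes was 0.02 in both of these comparisons. On either TPM scale, 7 and 6 were higher than in differentiated libraries and none lower, and with log2(TPM + 1) the list's medians against them lay at 0.16 and 0.27 relative to that of all genes. Trpv4, a calcium channel that opens on stretch and warmth, averaged 226 ± 65.7 CPM among BCAM high, 163 ± 54.8 among BCAM low and 75.3 ± 14.5 among differentiated libraries. It was higher by 0.48 (SE 0.111, edgeR adjusted p 0.00685) between the BCAM groups, by 1.55 (SE 0.115, edgeR adjusted p 9.08e-12) between BCAM high and differentiated and by 1.07 (SE 0.114, edgeR adjusted p 2.01e-08) between BCAM low and differentiated. Abl2, a kinase that phosphorylates caveolin-1, was higher than in differentiated by 1.17 (SE 0.228, edgeR adjusted p 0.000128) in BCAM high and 0.71 (SE 0.231, edgeR adjusted p 0.0183) in BCAM low, and its relative Abl1 by 0.83 (SE 0.162, edgeR adjusted p 0.000127) in BCAM high. Piezo1, a stretch-gated channel, was lower in BCAM low than in differentiated by a log2 difference of -0.77 (SE 0.244, edgeR adjusted p 0.0155), a call lost on the TPM scale (-0.25, or -0.65 relative to the median of all genes, limma adjusted p 0.607), with no filter on low counts (-0.72, edgeR adjusted p 0.0643), with only the 2 groups in the fit (-0.76, edgeR adjusted p 0.055) and in batch 1 alone (-0.07, edgeR adjusted p 0.813). Piezo1 was also called lower in BCAM high than in differentiated, by a log2 difference of -0.78 (SE 0.24, edgeR adjusted p 0.01). That call was lost on the TPM scale, with no filter on low counts and in batch 1 alone. Abl1 was also called higher in BCAM low than in differentiated (0.60, SE 0.163, edgeR adjusted p 0.005), though not in batch 2 alone. With no batch term Trpv4 was not called between the BCAM groups (0.47, edgeR adjusted p 0.203). In batch 2 alone, Trpv4 between the BCAM groups (0.55, edgeR adjusted p 0.155) and Abl2 in BCAM low (0.23, edgeR adjusted p 0.717) were not called.

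**Figure D5:**
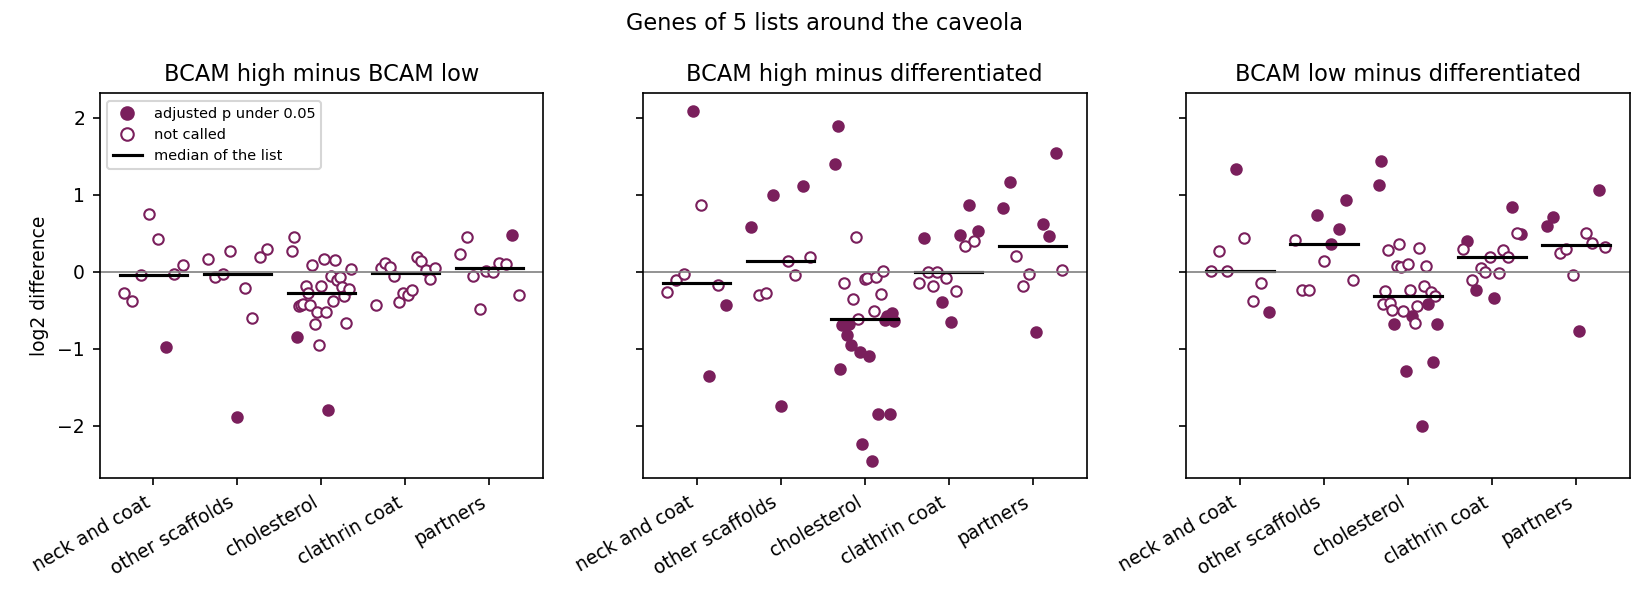
Fitted log2 differences of the tested genes of 5 lists in the 3 comparisons, filled where the adjusted p was under 0.05 in edgeR and open otherwise, with the median of each list as a bar. In the middle panel Ehd2 is the highest point of the caveolar coat and neck (2.09), and 15 filled points of the cholesterol list lie below 0.

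Other cell types rich in caveolae were looked for by their markers. Of 10 endothelial markers, all were detected in the BCAM groups and 9 in the differentiated group, where Cldn5 was at 0. They summed to 32.0 to 82.8 CPM among BCAM high, 24.7 to 89.0 among BCAM low and 7.49 to 55.0 among differentiated libraries. The 9 smooth muscle and pericyte markers summed to 25.9 to 62.3, 18.0 to 41.0 and 16.1 to 39.7 CPM, with Rgs5 at 0 in the differentiated group. The 5 adipocyte markers summed to at most 3.95 CPM in any library, with Adipoq at 0 in all.

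The 8 fibroblast markers summed to 179 to 679 CPM among BCAM high, 68.4 to 406 among BCAM low and 1.65 to 316 among differentiated libraries. In the BCAM groups most of the mean sum came from Dcn, the decorin gene, with means of 381.5 and 209.7 CPM. In the differentiated group Dcn averaged 2.22 CPM, and the collagen gene Col3a1 had the highest mean, at 46.7 CPM. The means of Dcn were in the order of those of Cav1, Cav2, Cavin1 and Cavin2 in CPM, but not of Cavin3, whose mean was higher in BCAM low than in BCAM high, while the other 7 fibroblast markers summed to 9.70 to 20.7, 6.62 to 141 and 1.65 to 315 CPM, highest in differentiated 6. Of 6 alveolar type 1 markers, Ager, Clic5 and Hopx had their highest mean in the differentiated group, Rtkn2 and Akap5 in BCAM high, and Aqp5, a gene also of airway glands, in BCAM low. Without Aqp5 they summed to 7.41 to 465 CPM among BCAM high, 19.0 to 47.6 among BCAM low and 221 to 1080 among differentiated libraries, where Ager alone averaged 447 CPM. BCAM high 6 held the 465 CPM, 316.8 of it from Ager. The part of these cell types in the levels of the caveola genes was not tested.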

How the data were processed

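RNA from 24 libraries was analysed from 1 deposited table per library, which lists 117497 transcripts. Per the file headers, each table gives an estimated count and a TPM value per transcript, in the layout that kallisto writes. The submitters' processing notes name kallisto 46.1, Picard and GRCm39, without their roles. The estimated counts as deposited carry no normalization by the authors. The deposited TPM values are scaled for transcript length.

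Identifiers were matched to GENCODE M21 (GRCm38), whose coordinates are printed and are not those of the authors' build; 116374 matched, and the rest held 0.317% to 0.595% of counts. Counts were summed per gene and rounded. The main test was edgeR 4.0.16 (quasi-likelihood, robust, TMM factors, default filter on low counts) in 1 fit over all libraries with batch as a covariate, with Benjamini-Hochberg adjustment over 12211 genes at 0.05; the SE is the absolute log2 difference divided by the square root of F. R 4.3.3, limma 3.58.1, DESeq2 1.42.0, Python 3.11.15 and scipy 1.17.1 were used, and the tests were tested on simulated data. Transcript shares were tested by exact permutation within batch, where each library had at least 20 counts of the gene. The reads were amplified and carry no molecular identifiers, so counts are not counts of molecules.

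The caveola genes and the 5 lists were chosen with earlier results of these data known. Named were the members, Bcam, Krt5 and Trp63 (204 ± 53.3 CPM in BCAM low, 380 ± 216 in BCAM high and 8.19 ± 9.78 in differentiated libraries), the tested genes of the coat and neck list, the 3 called genes of each other list with the largest change per comparison, and the 3 genes most like each member by Pearson's r, except 1 that is not reported here. The alternatives tried were no filter, the Wald test of DESeq2, its size factors in edgeR, limma on log2(TPM + 0.1) and log2(TPM + 1), no batch term, the replicate number as a block, only the 2 groups compared, each batch alone and each library left out. RefSeq upstream windows (GRCm38.p6) were matched by symbol for 4 of the 5 members.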

Additional observations from a re-analysis of the deposited data

Results flagged for a closer look

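None of 48 groups of 8 libraries, for 16 genes (the 5 caveola genes, 8 of the coat and neck list, and Bcam, Krt5 and Trp63) in 3 groups, had a single library far from the rest by a gap of over 0.526 of the range. Differences of listed genes from the differentiated group that were not the same in both batches, by edgeR's test of the interaction with Benjamini-Hochberg adjustment, are given as the log2 difference in batch 2 minus that in batch 1. Values below 0 mean that the BCAM group lay lower relative to the differentiated group in batch 2 than in batch 1.

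In the caveolar coat and neck list, Ehd2 had -2.17 for BCAM low against differentiated (edgeR adjusted p 0.0105). Dnm2 had 1.06 for BCAM high (edgeR adjusted p 0.000306) and 1.01 for BCAM low (edgeR adjusted p 0.000394). Among the other scaffolds, Mall had 1.39 for BCAM high (edgeR adjusted p 0.00726) and 1.01 for BCAM low (edgeR adjusted p 0.0479). For BCAM low, Stom had 1.16 (edgeR adjusted p 0.0417) and Flot2 -0.67 (edgeR adjusted p 0.0347).

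In the cholesterol list, Abcg1 had -2.51 for BCAM high (edgeR adjusted p 0.00102) and -2.49 for BCAM low (edgeR adjusted p 0.00107). Insig1 had 1.88 for BCAM high (edgeR adjusted p 0.0053) and 1.99 for BCAM low (edgeR adjusted p 0.00201), and Cyp51 had 1.47 for BCAM low (edgeR adjusted p 0.0202). Of the clathrin coat, Fcho2 had 1.43 for BCAM high (edgeR adjusted p 0.00329). Of the partners, Piezo1 had -1.91 for BCAM low (edgeR adjusted p 0.00026). The differentiated libraries of batch 2 also differed from those of batch 1 in thyroid and secretory markers, whose part in these values was not tested.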

How the results depend on the processing

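Of 510 caveola gene differences over 34 alternatives, 502 kept the sign given above, and the exceptions were all of Cavin3 between BCAM high and BCAM low (-0.28 in batch 1 alone). Low counts limit Cavin3 and, in the differentiated libraries of batch 2, Cavin2 (15, 3 and 50 counts). The cause of each change below was not tested. With limma on log2(TPM + 0.1), differences between BCAM high and BCAM low were 0.96 for Cav1, 0.76 for Cav2 and 0.45 for Cavin1; between BCAM high and differentiated 2.94, 2.36, 2.28, 2.38 and 2.46 for Cav1, Cav2, Cavin1, Cavin2 and Cavin3; and between BCAM low and differentiated 1.60 for Cav2, 1.83 for Cavin1, 1.62 for Cavin2 and 2.21 for Cavin3. With log2(TPM + 1) they were 0.95, 0.75 and 0.45; then 2.91, 2.34 (Cav2), 2.26 and 2.09 (Cavin2); then 1.58 and 1.81. Batch 1 alone gave 1.25 and 1.00 for Cavin1 against differentiated. Batch 2 alone gave 1.05 (Cav1) and 0.72 (Cavin3) between BCAM high and BCAM low, 2.04 (Cavin1) and 2.28 (Cavin2) between BCAM high and differentiated, and 1.17, 1.75, 1.82 and 0.94 for Cav1, Cavin1, Cavin2 and Cavin3 between BCAM low and differentiated. The gap of batch 2 to batch 1, by limma on log2(TPM + 1), an alternative chosen after seeing the data, was -0.33 (Cav2), -0.29 (Cavin1) and -1.71 (Cavin2) in BCAM high and -0.90 (Cavin1) in differentiated libraries.

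Genes called between BCAM high and BCAM low numbered 857, against 545 with no batch term, 1297 with only the 2 groups and 543 in batch 2 alone. Between BCAM high and differentiated they numbered 5044, against 7709 and 7741 on the 2 TPM scales, and between BCAM low and differentiated 4086, against 2221 in batch 2 alone. Batch interactions between BCAM high and BCAM low numbered 129 in edgeR and 231 by the DESeq2 Wald test. Lists are given in the order of the comparisons. On both TPM scales, the coat and neck list had 2 and 5 called in the first and second, other scaffolds 7 in the second, cholesterol 1 and 10 in the first and second, and clathrin 1 and 11. With no filter, the coat and neck list had 1 in the third, cholesterol 1 in the first and 5 in the third, and clathrin 3 in the third. With only the 2 groups, the first comparison had 3, 2, 6 and 1 for coat and neck, scaffolds, cholesterol and clathrin. With no batch term, scaffolds had 2 in the third and partners 0 in the first. In batch 1 alone, scaffolds had 2 in the first, cholesterol 15 in the third, clathrin 1 in the first and 3 in the second, and partners 3 in the second. In batch 2 alone, edgeR called 0 of coat and neck, scaffolds and partners in the first; cholesterol had 6 and 3 in the second and the third, clathrin 3 and 2, and coat and neck 1 and partners 2 in the third.

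Leaving out each library in turn, scaffolds ranged from 1 to 2 in the first comparison and 2 to 4 in the third, cholesterol from 1 to 3 and 5 to 11, and clathrin from 0 to 2 in the first. The share of Cav1-201 ranged from -11.18 to -7.90 points between BCAM high and BCAM low and from 8.004 to 12.9 between BCAM high and differentiated; by counts it was -4.74 in the first and 10.3 in the third, and permuting without regard to batch gave an adjusted exact permutation p of 0.0503 for -9.11. The share of Cav2-201 ranged from -4.85 to 0.67 in the second comparison, and that of Cavin1-201 from -0.0056 to 0.213 in the first and -0.0096 to 1.58 in the third.

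The replicate numbers were not taken to pair the libraries, since not every pair passed 0.1: deviations of same-numbered libraries had correlations of 0.0252 to 0.155, all positive, over 0.1 in 3, 2 and 1 of 8 pairs. With the number as a replicate block, 864, 5129 and 4136 genes were called in place of 857, 5044 and 4086, clathrin had 1 in the first comparison, Mall lost its call between BCAM low and differentiated (0.58, edgeR adjusted p 0.062), and 7, 8 and 6 of 8 libraries were closest to their own number, a hint from the data and not the design.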
